A study of Mus musculus with 6 samples.

Results

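The Mu class glutathione transferases of the mouse are encoded by 7 genes, Gstm1 to Gstm7. They were taken by symbol from a table of ovarian transcript levels, in which all 7 were listed among 25164 genes. The class was picked with differences between these libraries in view, so its cKO and wild type values are given as a description. Counts of members past a threshold in the fit over all genes are printed beside the share of all genes and are not evidence of a difference. The study asks what loss of hnRNPL, an RNA-binding protein that controls splicing, does to the transcriptome of the ovary. Ovaries of C57BL/6 mice on day 1 were compared in 2 groups of 3 libraries each: cKO ovaries were hnRNPL flox/flox;Stra8-cre, and wild type (WT) ovaries are labelled as such. Stra8-cre drives Cre recombinase in germ cells, whereas the libraries were made from whole ovaries. Whether each library is a different animal is not in the labels, so errors and p-values measure the spread between libraries. The labels also mention a hormone challenge without describing it.

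Glutathione transferases join the thiol of glutathione to electrophilic compounds, which makes these more soluble and easier to export. The soluble enzymes are dimers grouped into classes by sequence, and the Mu class is known for conjugating epoxides and products of lipid peroxidation. In the ovary glutathione is a major thiol antioxidant of oocytes and follicle cells.

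The 7 genes form a single cluster of 149.3 kb on chromosome 3 (GRCm38), from 107895854 to 108045179. Gstm5 lies at one end, from 107895854 to 107898685, and is the only member on the plus strand. Gstm7, Gstm6, Gstm3, Gstm2, Gstm1 and Gstm4 follow in that order on the minus strand. The coding sequence has 657 bases in 5 members, 675 in Gstm5 and 699 in Gstm6. Over 21 pairs the median identity of the aligned coding sequences was 82.3%. It was highest between Gstm1 and Gstm3, at 89.5%, and lowest between Gstm3 and Gstm5, at 69.1%. The windows of 60 aligned bases in which the members are most alike and least alike show how far a read can tell them apart. They come from GENCODE M21 transcripts, run 5′ to 3′ along the coding strand, and carry capitals where a base differs from Gstm2, the most abundant member. In the most alike window 44 of 60 columns were the same in all members, and Gstm3 and Gstm6 were identical there.
Gstm2: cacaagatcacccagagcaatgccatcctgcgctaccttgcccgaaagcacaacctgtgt
Gstm1: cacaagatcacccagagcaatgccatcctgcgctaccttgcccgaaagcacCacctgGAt
Gstm6: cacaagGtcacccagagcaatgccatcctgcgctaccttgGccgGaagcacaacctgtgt
Gstm5: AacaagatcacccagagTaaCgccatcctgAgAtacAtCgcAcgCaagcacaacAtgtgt
Gstm7: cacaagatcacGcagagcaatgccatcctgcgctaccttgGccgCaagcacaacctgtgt
Gstm4: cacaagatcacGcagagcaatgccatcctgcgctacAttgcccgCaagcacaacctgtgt
Gstm3: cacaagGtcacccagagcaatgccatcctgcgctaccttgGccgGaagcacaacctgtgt

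In the least alike window, near the end of the coding sequence, 20 of 60 columns were the same in all members.
Gstm2: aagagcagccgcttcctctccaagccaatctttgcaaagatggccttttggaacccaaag
Gstm1: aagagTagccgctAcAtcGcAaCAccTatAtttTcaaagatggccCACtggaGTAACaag
Gstm6: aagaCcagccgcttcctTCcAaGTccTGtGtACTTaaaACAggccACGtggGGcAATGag
Gstm5: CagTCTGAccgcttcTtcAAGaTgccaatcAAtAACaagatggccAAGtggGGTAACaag
Gstm7: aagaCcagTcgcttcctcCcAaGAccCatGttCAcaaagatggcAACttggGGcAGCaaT
Gstm4: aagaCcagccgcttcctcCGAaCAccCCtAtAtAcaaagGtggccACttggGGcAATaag
Gstm3: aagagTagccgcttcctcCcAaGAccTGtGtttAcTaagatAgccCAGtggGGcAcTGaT

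Shared sequence bears on how far each value belongs to its own gene. Of all stretches of 50 bases in the longest coding transcript, 28.8% in Gstm3, 23.2% in Gstm1, 11.5% in Gstm6 and 9.36% in Gstm2 also occurred in a transcript of another gene. The partners were other members and annotated loci such as Gstm2-ps1 and Gm8834. With stretches of 100 bases the shares were 13.8% in Gstm3, 7.73% in Gstm1, 2.41% in Gstm6 and 0.62% in Gstm2. Gstm4, Gstm5 and Gstm7 shared none at either length. The sources used here do not give how the authors assigned reads that match several genes, so values of Gstm3, Gstm1, Gstm6 and Gstm2 may include reads from each other, and Gstm3, whose close relatives are far more abundant, is the most uncertain.

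The table gives FPKM, fragments scaled per length of transcript and per mapped fragment of the library, a level corrected for transcript length. Depth, estimated from the smallest steps between FPKM values, was 7200000, 10700000 and 12100000 fragments in cKO replicates 1 to 3 and 14300000, 13700000 and 11000000 in wild type replicates 1 to 3. The shallowest library, cKO replicate 1, stood apart: its summed FPKM was 335667, against 223845 to 246121 in the other 5 libraries. Genes in the shortest sixth by transcript length, up to 1720 bp, lay 0.35 above their own mean there on the log2 scale, and between 0.03 and 0.10 below it in the other libraries. All 7 members belong to that sixth, so their values are also given after median-of-ratios scaling of the libraries, after a correction for transcript length, and without cKO replicate 1. Hnrnpl itself stood at 100.5, 81.5 and 85.2 FPKM in cKO ovaries, against 104, 93.8 and 102 FPKM in wild type ovaries. These ranges overlap (limma adjusted p = 0.571), and in whole ovaries germ cell RNA was not separated from that of other cells.

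Gstm2, Gstm1 and Gstm6 were the dominant members in both groups. Gstm2 had 660.6, 464 and 416 FPKM in cKO ovaries, against 356, 361 and 367 FPKM in wild type ovaries. The groups did not overlap, and cKO replicate 1 was far above the other 2 cKO libraries. The cKO mean was 514 ± 130 FPKM and the wild type mean 362 ± 5.62 FPKM (SD, n = 3 each), a log2 difference of 0.48 with a standard error (SE) of 0.22. With this level Gstm2 ranked 36 among the 12442 genes tested, those averaging 1 FPKM or more.

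Gstm1 had 370.4, 279.7 and 264 FPKM in cKO ovaries, against 219, 244 and 219 FPKM in wild type ovaries. Again every cKO library lay above every wild type library, but the lowest cKO and the highest wild type values were close. The means were 305 ± 57.5 in cKO and 227 ± 14.8 FPKM in WT (SD, n = 3 each), and the log2 difference was 0.41 (SE 0.18). Gstm6 had 230.4, 172 and 150.1 FPKM in cKO ovaries, against 107, 109.6 and 109 FPKM in wild type ovaries. The groups did not overlap, and cKO replicate 1 was again the highest. The cKO mean was 184 ± 41.6 FPKM and the wild type mean 109 ± 1.23 FPKM (SD, n = 3 each). The log2 difference of 0.73 (SE 0.18) was the highest of the 7 members on the deposited values.

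Gstm5 and Gstm7 came next in level. Gstm5, the member most distant in sequence, had 53.1, 38 and 35.5 FPKM in cKO ovaries, against 33.2, 30.6 and 23.6 FPKM in wild type ovaries. The groups were separated by a narrow gap, and both spread widely. The means were 42.2 ± 9.49 in cKO and 29.1 ± 4.91 FPKM in WT (SD, n = 3 each), with a log2 difference of 0.51 (SE 0.19). Gstm7 had 22.5, 15.1 and 15.9 FPKM in cKO ovaries, against 12.4, 11.4 and 11.4 FPKM in wild type ovaries. All cKO libraries lay above all wild type libraries. The means were 17.8 ± 4.05 in cKO and 11.7 ± 0.525 FPKM in WT (SD, n = 3 each), and the log2 difference was 0.54 (SE 0.15).

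Gstm4 and Gstm3 were low. Gstm4 had 6.17, 3.71 and 3.49 FPKM in cKO ovaries, against 3.24, 3.36 and 4.15 FPKM in wild type ovaries. It was the only member whose groups overlapped, with means of 4.46 ± 1.49 in cKO and 3.58 ± 0.496 FPKM in WT (SD, n = 3 each). Its log2 difference of 0.22 (SE 0.19) fell to 0.01 when cKO replicate 1 was left out. Gstm3 had 2.94, 2.44 and 1.62 FPKM in cKO ovaries, against 1.03, 1.33 and 1.17 FPKM in wild type ovaries. The groups did not overlap, but these values rest on an estimated 24, 29 and 22 fragments in cKO and 16, 20 and 14 fragments in wild type libraries. The mean of Gstm3 was 1.99 times as high in cKO, at 2.33 ± 0.664 in cKO and 1.18 ± 0.154 FPKM in WT (SD, n = 3 each). The log2 difference of 0.60 (SE 0.18) is smaller than this ratio because it is taken on log2(FPKM + 1), which understates differences at low levels.

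**Figure D1:**
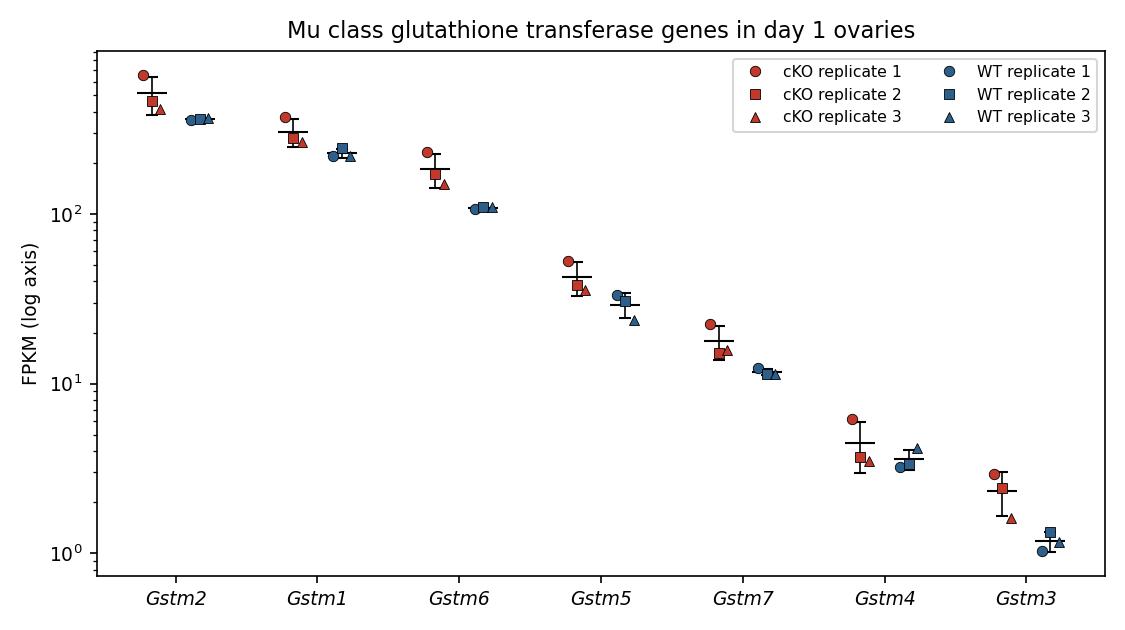
FPKM of the 7 Mu class genes in each library on a log axis, cKO (red) left of WT (blue) for each gene, with a horizontal line at the mean and bars of 1 SD (n = 3). The groups overlap for Gstm4 only, and cKO replicate 1 (circle) is the highest library for all 7 genes.

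The order of levels, Gstm2, Gstm1, Gstm6, Gstm5, Gstm7, Gstm4 and Gstm3 from high to low, was the same in 6 of 6 libraries. Taken over all libraries, the ranges of Gstm2 and Gstm1 overlapped, as did those of Gstm1 and Gstm6. Within a library Gstm2 was 1.48 to 1.78 times as high as Gstm1, and Gstm1 was 1.61 to 2.23 times as high as Gstm6. The other neighbours in the order had separate ranges. The widest step was from Gstm6 to Gstm5, a ratio of 3.24 to 4.61 within a library.

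A read given to one member in place of another leaves the sum nearly unmoved, apart from length. Reads shared with loci outside the 7 genes, such as Gm8834 and Gstm2-ps1, can still move it. Summed over the 7 genes the level was 1346, 974.6 and 887 FPKM in cKO ovaries, against 732, 762 and 735 FPKM in wild type ovaries. The groups did not overlap, and the mean was 1.44 times as high in cKO (1069 ± 244 in cKO against 743 ± 16.5 FPKM in WT; SD, n = 3 each). After median-of-ratios scaling it was 1.35 times as high, at 1023 ± 125 in cKO and 758 ± 22.2 FPKM in WT (SD, n = 3 each). The 7 genes made up 0.401%, 0.411% and 0.36% of all summed FPKM in cKO libraries and 0.31%, 0.34% and 0.306% in wild type libraries.

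Shares within the family are not affected by scaling of the libraries. Gstm6 made up 17.12%, 17.63% and 16.92% of the summed Mu class FPKM in cKO ovaries, against 14.65%, 14.38% and 14.83% in wild type ovaries. These groups did not overlap, and the spread within each was small (means 17.22 ± 0.367% in cKO and 14.62 ± 0.229% in WT; SD, n = 3 each). Gstm2 held 47.87 ± 1.09% in cKO and 48.67 ± 1.26% in wild type, and Gstm1 held 28.66 ± 1.12% in cKO and 30.58 ± 1.3% in wild type (SD, n = 3 each). Both had overlapping groups, as had Gstm4, Gstm5 and Gstm7. Gstm3 held 0.18% to 0.25% in cKO and 0.14% to 0.18% in wild type libraries, ranges that were separate before rounding.

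The cKO libraries varied more than the wild type libraries for all 7 members. The coefficient of variation was 18.9% to 33.3% in cKO and 1.1% to 16.9% in wild type. After scaling it was 8.3% to 22.3% in cKO and 3% to 16.2% in wild type, and Gstm5 then varied more in wild type. Before scaling cKO replicate 1 was the highest library for all 7 members, and after it for all but Gstm3, where cKO replicate 2 was marginally higher.

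Set against all tested genes, the 7 members lay on the higher side in cKO. Their median log2 difference was 0.51, while the median of all tested genes was 0.08. All 7 differences were above 0, as were 65.2% of all tested genes. In 6 of 7 members every cKO library exceeded every wild type library, against 15.5% of tested genes. With limma over all 12442 genes 0 of 7 members passed an adjusted p of 0.05, against 0.121% of tested genes (0.0482% higher and 0.0723% lower in cKO), and 4 of 7 had an unadjusted p under 0.05, against 14.2% of tested genes. The members were chosen with this comparison known, so none of these counts supports a difference.

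Scaling lowered every difference and its standard error. After median-of-ratios scaling the log2 differences were 0.66 (SE 0.11) for Gstm6, 0.55 (SE 0.16) for Gstm3 and 0.47 (SE 0.09) for Gstm7. They were 0.44 (SE 0.13) for Gstm5, 0.40 (SE 0.14) for Gstm2, 0.33 (SE 0.11) for Gstm1 and 0.16 (SE 0.15) for Gstm4. The median of the members was then 0.44, beside 0.01 for all tested genes. In this fit 1 of 7 members passed an adjusted p of 0.05, Gstm6, beside 1.3% of tested genes (0.812% higher in cKO). All 7 differences were above 0, beside 52.4% of tested genes, and 6 of 7 members remained above wild type in every library, beside 13.4%.

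The correction for transcript length took out more of the excess of short genes in cKO replicate 1. The members' median was then 0.34, beside 0.00 for all genes with a length (0.002), and it was also 0.34 when cKO replicate 1 was left out instead. Gstm6 kept a log2 difference of 0.56 (SE 0.08) and Gstm7 one of 0.38 (SE 0.07) after the correction, and these 2 of 7 passed an adjusted p of 0.05, beside 1.83% of genes (0.984% higher in cKO). All 7 differences were above 0, beside 50.3% of genes, and 6 of 7 members had separate groups with cKO higher, beside 13.1%. Gstm4 stood at 0.08 (SE 0.13), less than its standard error. Without cKO replicate 1 the log2 differences were 0.56 for Gstm6, 0.47 for Gstm3, 0.37 for Gstm7, 0.34 for Gstm5, 0.28 for Gstm2 and 0.26 for Gstm1.

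**Figure D2:**
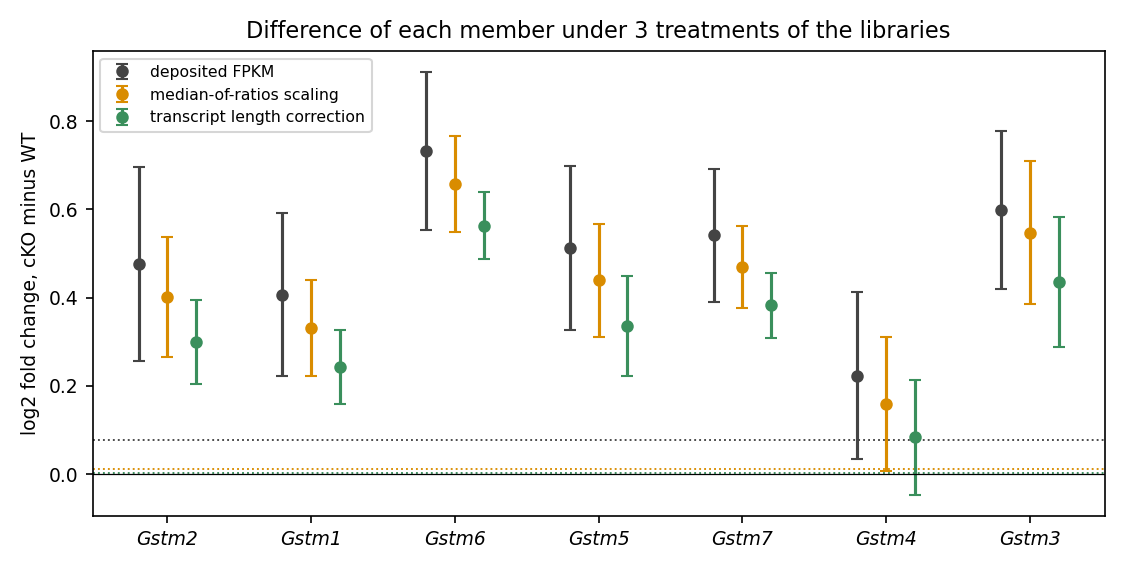
log2 fold change, cKO minus WT, of each Mu class gene on deposited FPKM (grey), after median-of-ratios scaling (orange) and after transcript length correction (green), with bars of 1 SE; dotted lines mark the median of all tested genes in each. All points lie above 0, each correction lowers them, and only Gstm4 comes within its SE of 0, after the length correction.

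The genes with the pattern most like Gstm2 over the 6 libraries, by Pearson r of log2(FPKM + 1) among 7754 genes averaging 5 FPKM or more, were Arf3 (r = 0.999), Snu13 (0.998), Zfand6 (0.997), the histone demethylase Kdm1a (0.997) and Anxa7 (0.997). Arf3 encodes a small GTPase of the Golgi and Snu13 a protein of small nuclear and nucleolar ribonucleoproteins. Arf3 stood at 61.8, 49.1 and 46.5 FPKM in cKO ovaries, against 42.1, 42.9 and 42.6 FPKM in wild type ovaries, again with cKO replicate 1 highest. Of the candidates 537 had an r above 0.95, so that a likeness of this degree was common, and the 6 points share the depth and composition of their libraries. Of the other members Gstm1 (0.975), Gstm6 (0.97) and Gstm7 (0.961) were closest to Gstm2, and Gstm3 (0.935), Gstm5 (0.887) and Gstm4 (0.877) were less alike.

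The promoters of 3 members show what the annotated starts hold. RefSeq (GRCm38.p6) listed 12 starts for the 7 members, each given as 250 bases before and 50 after the start. They were searched on both strands for TGACNNNGC, a core of the antioxidant response element bound by NRF2, for the AP-1 element TGACTCA, which shares its opening letters, for the NR5A1 element AAGGTCA and for TATAAA. The NRF2 core was found in 2 of 12 member promoters, those of Gstm5 and Gstm7, and in 12.4% of 32851 promoters of the same length. The AP-1 element was found in 1 member promoter, that of Gstm5, and in 5.2% of all. TATAAA was found in 3 member promoters, of Gstm1, Gstm5 and Gstm7, and in 13.6% of all, and AAGGTCA in 0 of 12 and 4.72% of all. A match describes letters, not binding. The promoter of Gstm2 (chr3:107986371-107986670, minus strand) is shown as that of the most abundant member and held none of the 4 motifs. Those of Gstm5 (chr3:107895604-107895903, plus strand) and Gstm7 (chr3:107931565-107931864, minus strand) are shown with the matches in capitals. The last run in Gstm5 is TATAAA and lies after the start. The TATAAA of Gstm7 was in the promoter of its other listed start, which is not shown.
Gstm2: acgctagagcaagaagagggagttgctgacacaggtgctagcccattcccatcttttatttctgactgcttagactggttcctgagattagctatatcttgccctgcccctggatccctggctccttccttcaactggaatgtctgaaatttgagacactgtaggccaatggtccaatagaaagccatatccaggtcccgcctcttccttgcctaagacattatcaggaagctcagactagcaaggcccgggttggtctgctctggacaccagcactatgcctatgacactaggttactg
Gstm5: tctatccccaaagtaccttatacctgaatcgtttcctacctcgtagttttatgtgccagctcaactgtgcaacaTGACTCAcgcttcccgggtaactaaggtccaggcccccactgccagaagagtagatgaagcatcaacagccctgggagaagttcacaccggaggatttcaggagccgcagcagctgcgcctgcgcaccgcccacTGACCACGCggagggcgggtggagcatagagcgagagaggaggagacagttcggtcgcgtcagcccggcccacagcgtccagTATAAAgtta
Gstm7: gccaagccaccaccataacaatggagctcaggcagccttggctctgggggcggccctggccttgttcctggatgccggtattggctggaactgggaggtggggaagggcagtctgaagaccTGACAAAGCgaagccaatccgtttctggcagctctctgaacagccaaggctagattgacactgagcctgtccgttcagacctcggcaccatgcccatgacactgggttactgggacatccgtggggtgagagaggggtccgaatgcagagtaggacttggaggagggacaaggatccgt

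The rest of the glutathione system was read from lists, and with limma on the deposited values 0 genes of any of the 5 lists passed an adjusted p of 0.05, against 0.121% of tested genes. Of the other soluble transferases 11 of 18 listed genes were tested. The median log2 difference was 0.10, near that of all tested genes (0.08), and 1 of 11 had an unadjusted p under 0.05, against 14.2% of tested genes. This was Gstt1, a Theta class enzyme, at 18.1 ± 2.05 FPKM in cKO ovaries, against 13.5 ± 1.19 FPKM in wild type ovaries (SD, n = 3 each; adjusted p = 0.222). Gsta4, the Alpha class enzyme known for conjugating 4-hydroxynonenal, had a cKO mean of 38.1 ± 7.89 and a WT mean of 29.8 ± 0.973 FPKM (SD, n = 3 each; limma adjusted p = 0.37). Gstk1, the Kappa class enzyme of mitochondria and peroxisomes, had a cKO mean of 4.05 ± 1.45 and a WT mean of 2.7 ± 0.429 FPKM (SD, n = 3 each; limma adjusted p = 0.398). Gstp1, the abundant Pi class gene, had 83.2, 46.6 and 49 FPKM in cKO ovaries, against 54.6, 53.7 and 53.6 FPKM in wild type ovaries, where only cKO replicate 1 lay above wild type. The summed level of the list was 149 to 207 FPKM in cKO ovaries, against 147 to 151 FPKM in wild type, well below that of the Mu class.

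Of the membrane-bound MAPEG family, 4 of 6 genes were tested, with a median log2 difference of 0.37, and 1 of 4 had an unadjusted p under 0.05, against 14.2% of tested genes. Mgst1, the microsomal transferase of endoplasmic reticulum and mitochondria, had 154, 89.3 and 106 FPKM in cKO ovaries, against 75.7, 86.5 and 85.3 FPKM in wild type ovaries. The groups were separated by a narrow gap (limma adjusted p = 0.364). Ptges, which makes prostaglandin E2, had 5.08, 3.06 and 4.53 FPKM in cKO, against 8.58, 8.27 and 8.31 FPKM in wild type ovaries. All cKO libraries lay below wild type, with a log2 difference of -0.87 (SE 0.15; limma adjusted p = 0.0822). After median-of-ratios scaling it passed (limma adjusted p = 0.021), with the opposite sign to the Mu class members.

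Of the genes of glutathione synthesis and turnover 13 of 16 were tested, with a median of 0.14, and 2 of 13 had an unadjusted p under 0.05, close to the 14.2% of all tested genes. Chac1, which degrades glutathione in the cytosol, had 3.96, 2.25 and 3.87 FPKM in cKO ovaries, against 1.04, 0.417 and 0.45 FPKM in wild type libraries. The log2 difference of 1.41 (SE 0.22) had an adjusted p of 0.0708 with limma, and of 0.0291 after scaling. Slc7a11, the cystine transporter that supplies cysteine for glutathione, had a cKO mean of 3.21 ± 0.768 and a WT mean of 1.53 ± 0.308 FPKM (SD, n = 3 each; limma adjusted p = 0.151). Of the subunits of the rate-limiting ligase, the catalytic Gclc had a log2 difference of -0.07 (limma adjusted p = 0.803), and Gclm, the modifier subunit, had a cKO mean of 16.4 ± 2.23 and a WT mean of 13.7 ± 0.136 FPKM (SD, n = 3 each; adjusted p = 0.398).

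Among glutathione-using enzymes and exporters 14 of 18 genes were tested, with a median of 0.15, and 3 of 14 had an unadjusted p under 0.05, against 14.2% of tested genes. Glrx5, a mitochondrial glutaredoxin of iron-sulfur cluster assembly, had 26.2, 20.4 and 18.8 FPKM in cKO ovaries, against 14.1, 15.6 and 13 FPKM in wild type ovaries. Every cKO library exceeded every wild type library (log2 difference 0.57, SE 0.14; limma adjusted p = 0.166, and 0.0459 after scaling). Hagh, the glyoxalase that releases glutathione, had a cKO mean of 6.06 ± 0.841 and a WT mean of 4.16 ± 0.368 FPKM (SD, n = 3 each; limma adjusted p = 0.189). Abcc1, an exporter of glutathione conjugates, had a log2 difference of -0.10 (limma adjusted p = 0.623).

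NRF2 is a transcription factor that switches on glutathione and antioxidant genes. Of its regulators and targets 25 of 26 genes were tested, with a median log2 difference of 0.15, and 2 of 25 had an unadjusted p under 0.05, against 14.2% of tested genes. After scaling the median was 0.08, beside 0.01 for all tested genes. Nfe2l2, which encodes NRF2, had 32.8, 30.6 and 33.9 FPKM in cKO ovaries, against 29.4, 35.9 and 30.1 FPKM in wild type ovaries, and the groups overlapped (limma adjusted p = 0.911). The targets Nqo1 (limma adjusted p = 0.881), Txnrd1 (0.961) and Srxn1 (0.867), picked after their values were seen, overlapped as well. The target Prdx1 did not overlap (limma adjusted p = 0.466). It had 325, 206 and 218 FPKM in cKO ovaries, against 191, 199 and 188 FPKM in wild type ovaries. Over the whole list 22 of 25 differences on the deposited values were above 0 and 3 below, against 65.2% of tested genes above 0. After median-of-ratios scaling those of Nfe2l2 (-0.04), Txn1 (-0.03), G6pdx (-0.04) and Fth1 (-0.03) also fell below 0. Of all tested genes 52.4% were then above 0. On the deposited values every cKO library exceeded every wild type library in 5 of 25, against 15.5% of tested genes. The smallest p-values were those of the small MAF partners Mafg, at 7.81 ± 0.49 in cKO and 5.73 ± 0.637 FPKM in WT (limma adjusted p = 0.197), and Maff, at 11.1 ± 1.34 in cKO and 8.19 ± 0.878 FPKM in WT (0.228), and of Taldo1, an enzyme of the pentose phosphate pathway, at 31.3 ± 8.56 in cKO and 23.2 ± 0.95 FPKM in WT (0.379; SD, n = 3 each).

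**Figure D3:**
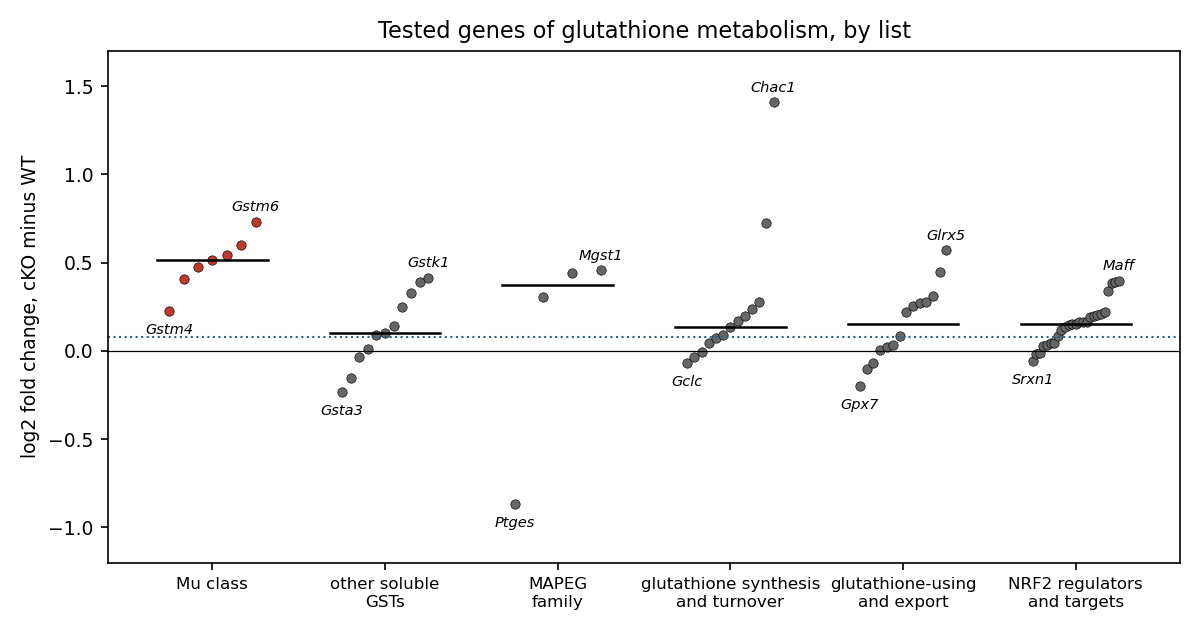
log2 fold change, cKO minus WT, of each tested gene in the Mu class (red) and in 5 lists of glutathione genes (grey), with a bar at the median of each list and a dotted line at the median of all tested genes (0.08). The Mu class median is 0.51, the list medians lie between 0.10 and 0.37, and Chac1 and Ptges are the farthest from 0.

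The genes around the cluster had a median difference near that of all tested genes. Within 500 kb of the outermost members RefSeq places 42 genes, of which 26 were in the table and 13 were tested. With limma 0 of 13 passed an adjusted p of 0.05, against 0.121% of tested genes, and 1 of 13 had an unadjusted p under 0.05, against 14.2%. The median log2 difference was 0.04, below that of all tested genes (0.08). Sars, a serine tRNA synthetase near the far edge of this stretch, averaged 17.7 ± 4.87 FPKM in cKO ovaries and 10.8 ± 0.248 FPKM in WT ovaries (SD, n = 3 each; limma adjusted p = 0.201). Csf1, a growth factor of macrophages, stood lower in cKO, with a cKO mean of 1.68 ± 0.156 and a WT mean of 2.18 ± 0.166 FPKM (SD, n = 3 each; limma adjusted p = 0.422). The nearest tested genes on either side, 4933431E20Rik and Ampd2, had log2 differences of -0.15 (limma adjusted p = 0.645) and 0.02 (limma adjusted p = 0.941).

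**Figure D4:**
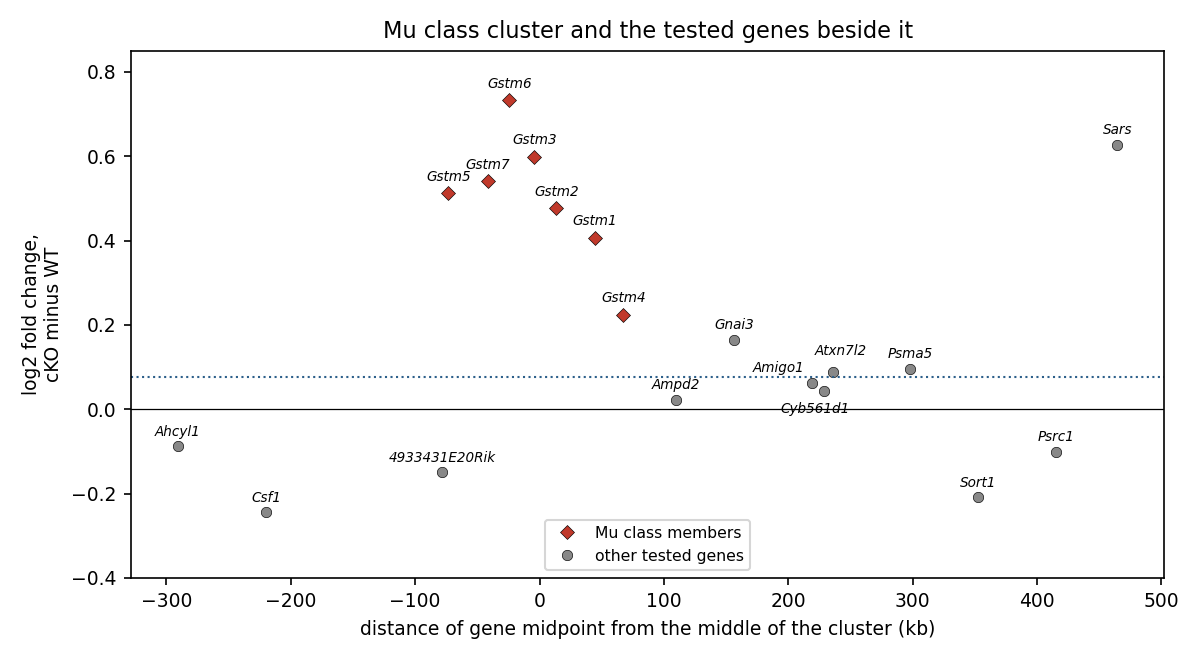
log2 fold change, cKO minus WT, of Mu class genes (red diamonds) and of 12 other tested genes (grey circles) against the distance of the gene's midpoint from the middle of the cluster in kb; the dotted line is the median of all tested genes (0.08). Gstm1 to Gstm7 lie between 0.22 and 0.73, and of the other genes drawn Sars, 464.5 kb away, lies in that range.

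A higher level in whole ovaries can come from more cells of a type or from more RNA per cell, and these cannot be told apart here. Marker lists of other cell types moved with the groups. Summed FPKM of 10 stroma genes was 870.5 to 972.5 in cKO and 1119 to 1170 in wild type libraries, and that of 9 surface epithelium genes was 179 to 273 in cKO and 281 to 302 in wild type. Of 7 endothelial genes it was 62.3 to 77.2 in cKO and 77.8 to 97.1 in wild type, and of 6 pericyte and smooth muscle genes 37.9 to 44.4 in cKO and 53.3 to 56.8 in wild type. The 6 erythroid genes, of which 5 were tested, summed to 463 to 534 in cKO and 772 to 836 in wild type libraries. All these ranges were separate and lower in cKO, whereas the Mu class sum was higher. Taken singly, 0 of the 5 tested erythroid genes had every cKO library below every wild type library. The share of all tested genes in that direction is not given, so this count is only a description. With limma 1 of these 5 had an unadjusted p under 0.05, lower in cKO, against 14.2% of tested genes in either direction.

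Pregranulosa markers, 14 of 14 tested, summed to 588 to 726 FPKM in cKO ovaries, against 581 to 593 FPKM in wild type, with a median log2 difference of 0.08. Taken singly, 5 of 14 had every cKO library above every wild type library, against 15.5% of tested genes. In 2 of 14 every cKO library lay below, a direction for which the share of all tested genes is not given. Germ cell and oocyte markers, 10 of 10 tested, summed to 114 to 216 in cKO and 105 to 119 FPKM in wild type. The 6 steroidogenic markers, of which 4 were tested, summed to 68.6 to 89.1 in cKO and 70.5 to 78.9 FPKM in wild type. Of those 4, 2 had every cKO library above every wild type library, against 15.5% of tested genes, and 2 had a log2 difference below 0. The ranges of these 3 lists, of macrophages (14.6 to 16.2 in cKO and 13.7 to 20.9 FPKM in wild type) and of oviduct and mesonephric epithelium (2.78 to 3.51 in cKO and 3.1 to 4.53 FPKM in wild type) overlapped. With limma 1 of 9 surface epithelium genes passed an adjusted p of 0.05 (0.0723% of tested genes did so lower in cKO), Upk1b, a urothelial uroplakin (3.59 ± 1.03 in cKO and 11.5 ± 1.04 FPKM in WT; adjusted p = 0.0428), and 1 of 10 germ cell genes, Zp3 of the egg coat (2.19 ± 0.19 in cKO and 8.26 ± 2.23 FPKM in WT; adjusted p = 0.0437; SD, n = 3 each). Both fell in cKO. The germ cell list as a whole went both ways, with 6 of 10 differences above 0 and 4 below, against 65.2% of tested genes above 0. At an unadjusted p under 0.05 with limma there were 3 higher and 2 lower of 10, against 14.2% of tested genes in either direction. After median-of-ratios scaling 2 higher and 2 lower genes passed an adjusted p of 0.05 with limma. Of all tested genes 1.3% did so in either direction and 0.812% higher in cKO. No listed marker of any cell type was at 0 in all libraries. The part of cell composition in the Mu class values was not tested.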

How the data were processed

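RNA of day 1 mouse ovaries was sequenced in 6 libraries, 3 per group, from 500 pg of amplified cDNA, per the labels' protocols. The authors deposited 1 table of FPKM values per gene symbol. The submitters' processing notes name featureCounts 2.0.6, HISAT2 2.2.1, STAR 2.7.11a and mm10, with no roles. The program that computed FPKM, its annotation and its treatment of reads that match several genes are not given in the sources used here. The name of the deposited table contains rmdup, which may stand for removal of duplicate reads, but the name alone does not settle this. Removal of duplicate reads can lower abundant transcripts most.

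Genes averaging 1 FPKM or more were fitted as log2(FPKM + 1) with limma 3.58.1 in R 4.3.3 (intensity trend, two-sided, Benjamini-Hochberg over all 12442 genes, called at an adjusted p under 0.05). The limma fit and the median-of-ratios factors were tested on simulated data. The other scalings, the length correction and the depth estimate were not. The length correction subtracted a lowess curve (span 0.3) of each library's deviations on transcript length, for the 98% of tested genes with a length. Depth was estimated from single-transcript genes of at least 1500 bp, assuming fragments of 200 bp. Of several solutions at multiples of each other the lowest was taken, with an earlier estimate known. Precision is limited by 3 libraries a group. Identity and shared stretches came from GENCODE M21 with MAFFT 7.526 and Python 3.11.15, promoters and neighbours from RefSeq, all on GRCm38, the build of mm10. The transcript of each member, the length of the NR5A1 motif and the gene set used when a library is left out were settled after first outputs were seen.

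The members and all lists were chosen with earlier results of these data known. Named were all 7 members, Hnrnpl, the called genes or otherwise the 3 with the smallest p of each pathway list and of the neighbours, the called gene of a cell type list, and the 5 genes most like Gstm2; some genes named by this rule are not reported here. A few further genes (Gstp1, Gclc, Abcc1, Nfe2l2, Nqo1, Txnrd1, Srxn1, Prdx1, Txn1, G6pdx, Fth1 and the nearest neighbours) were named after their values were seen. Alternatives were another pseudocount, other filters, 3 scalings, the length correction, a replicate block and each library left out.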

Additional observations from a re-analysis of the deposited data

How the results depend on the processing

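Over 20 alternatives 138 of 138 log2 differences of the members stayed above 0, but many of these could not differ from one another. Other filters and the replicate block leave a member's difference as it was in the main fit. Leaving a library out gives the same difference whichever genes are tested. The differences ranged from 0.53 to 0.87 for Gstm6, 0.44 to 0.90 for Gstm3, 0.36 to 0.64 for Gstm7 and 0.32 to 0.62 for Gstm5. For Gstm2 they ranged from 0.18 to 0.61, for Gstm1 from 0.20 to 0.50 and for Gstm4 from 0.01 to 0.35. The log2 ratio of the summed Mu class FPKM was 0.525, and was 0.275 with quantile normalization, 0.294 with TPM rescaling, which puts the median of all genes at -0.115, and 0.325 to 0.643 with a library left out.

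The count of genes past the threshold, 15, depended on most settings. It was 34 with a pseudocount of 0.1 FPKM, 1 with no filter, 23 with a filter at 5 FPKM (which drops Gstm3 and Gstm4), 162 with median-of-ratios scaling (101 higher and 61 lower), 233 with quantile normalization (129 and 104), 149 with TPM rescaling (56 and 93) and 223 with the length correction (120 and 103). The cause was not tested. With a library left out and the filter applied again it was 2 to 89. When the genes tested in all libraries were kept, an alternative chosen after seeing the data, it was 1 to 23, among them 4 without cKO replicate 2, 2 without wild type replicate 1 or 2, and 6 without wild type replicate 3. It was 89 or 23 without cKO replicate 1 and 74 or 1 without cKO replicate 3, so these counts hinge on small changes of the tested set.

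Gstm6 passed under the 3 scalings, the length correction and without cKO replicate 1 when the filter was applied again, but not with the same genes tested. Gstm7 passed with the length correction alone. Called genes of the glutathione lists numbered 0, and were 3 with median-of-ratios scaling, with quantile normalization and with the length correction (Ptges, Chac1 and Glrx5), 2 with TPM rescaling (Ptges and Chac1), and 0 to 1 with a library left out (Ptges without cKO replicate 1). No alternative called a gene beside the cluster. Of 671 values of named genes 21 lost a call and 28 gained one. Upk1b and Zp3 had adjusted p-values of up to 0.269, without wild type replicate 1.

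Deviations of same-numbered libraries from their group means correlated at -0.011, 0.039 and 0.068. With a replicate block, which leaves fewer residual degrees of freedom, 2 genes were called. With 3 libraries a group these values do not settle whether replicate numbers pair the libraries. Low depth limits Gstm3 and Gstm4, and shared sequence limits Gstm1, Gstm2, Gstm3 and Gstm6.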
